A study of Mus musculus with 12 samples.

Results

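The comparison set 3 libraries of C2C12 cells with Cebpg knocked down against 3 libraries of control C2C12 cells, both given DMSO for 6 h, and covered all genes. It used 6 of the 12 libraries of the series, assigned by sample title (Sh2-DMSO and Ctrl-DMSO). The other 6 libraries, from the same 2 cell populations given thapsigargin, which causes endoplasmic reticulum (ER) stress, entered only the shared estimate of spread and a last comparison of the knockdown between treatments. DMSO is the solvent of thapsigargin, so neither group of the comparison received a stress agent. The titles name the knockdown by the single label Sh2. How either population was made, what the control carries, and whether each is 1 clone or a pool are not given in the sources used here. Effects of losing Cebpg, off-target effects of Sh2 and other standing differences of the populations therefore cannot be told apart. The growth protocol names HeLa, a human line, but the source and cell line fields name C2C12 and the counts are for mouse genes.

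C2C12 is a line of mouse muscle precursor cells (myoblasts) that divide in serum and can fuse into muscle fibres when serum is withdrawn. Cebpg encodes the transcription factor C/EBP gamma, of the basic leucine zipper family, which carries little activating sequence of its own and works through its partners, among them ATF4, the main transcription factor of the amino acid and eIF2alpha stress response, and the other C/EBP proteins. C/EBP proteins are best known as regulators of acute phase and inflammatory genes, of fat cell formation and, in pairs with ATF4, of genes for amino acid supply and glutathione.

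The 6 libraries held 31.7 to 35.3 M reads assigned to genes. Levels are given as CPM, the read count per M gene reads after scaling between libraries, with mean ± SD over n = 3 libraries per group. Changes are log2 values, knockdown minus control, with the standard error (SE). A gene is said to have risen or fallen where its adjusted p was under 0.05 in edgeR's quasi-likelihood test over all genes. Whether replicates are separate cultures is not stated in the labels. The p-values thus rest on the spread between these libraries, which may be technical. The knocked-down gene itself stood at 51.8, 51.5 and 60.6 CPM in the control libraries and at 4.63, 3.75 and 5.18 CPM in the knockdown libraries, so that knockdown cells held 8.27% of the control mean of Cebpg (log2 change -3.59, SE 0.0837, edgeR adjusted p = 8.48e-25).

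The myoblast label was checked against 10 marker genes. Both groups held transcripts of Myod1, which drives the muscle lineage (151 ± 4.65 CPM in control and 124 ± 5.59 CPM in knockdown cells), and of its relative Myf5 (61.8 ± 6.18 and 73.6 ± 2.55 CPM). The muscle filament gene Des stood at 1187 ± 68.3 and 765 ± 46.3 CPM, and the muscle integrin gene Itga7 at 522 ± 29.6 and 376 ± 1.56 CPM. Cdh15, the muscle cadherin gene, was at 189 ± 9.5 and 186 ± 7.19 CPM. Pax7, which marks muscle stem cells, was low in both (1.53 ± 0.0664 and 0.74 ± 0.149 CPM). Of the markers of other cell types, Adgre1, Cd3e, Cd8a and Tyrobp (leukocytes), Esrp1 (epithelium), Emcn (endothelium), Lep (fat) and Olig2 (nervous system) had 0 reads in all 6 libraries. Other members of these lists had reads and some of them rose, as given with the marker lists below.

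Differences between the populations were widespread and mostly small. Of 15828 genes tested, 8154 (51.5%) were called, 3955 up (25.0%) and 4199 down (26.5%), and these shares are the background for the counts of genes below. Of the 13508 protein-coding genes tested, which make up nearly all of the lists, 56.1% were called. In 7713 genes (48.7%) the call came with no overlap between the 3 control and 3 knockdown libraries, and without regard to the test 57.1% of genes had no overlap. The median size of a called change was 0.386 on the log2 scale, and 61.4% of called genes changed by less than 0.5. A change of at least 1 on the log2 scale was found in 1410 genes (8.91%), of which 800 rose (5.05%) and 610 fell (3.85%). With a filter of at least 1 CPM in at least 3 libraries these became 492 and 425.

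Many of the large changes were in genes of low level. Of the 800 genes that rose by at least 1, 599 (74.9%) had a mean under 1 CPM in the lower group, the control, and of the 610 that fell by at least 1, 316 (51.8%) had one in the lower group, the knockdown. Control libraries held reads of 20588 to 20773 genes and knockdown libraries of 21208 to 22045, and the groups did not overlap. In RNA from whole cultures, a change in how many cells express a gene and a change of its RNA per cell cannot be told apart.

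**Figure D1:**
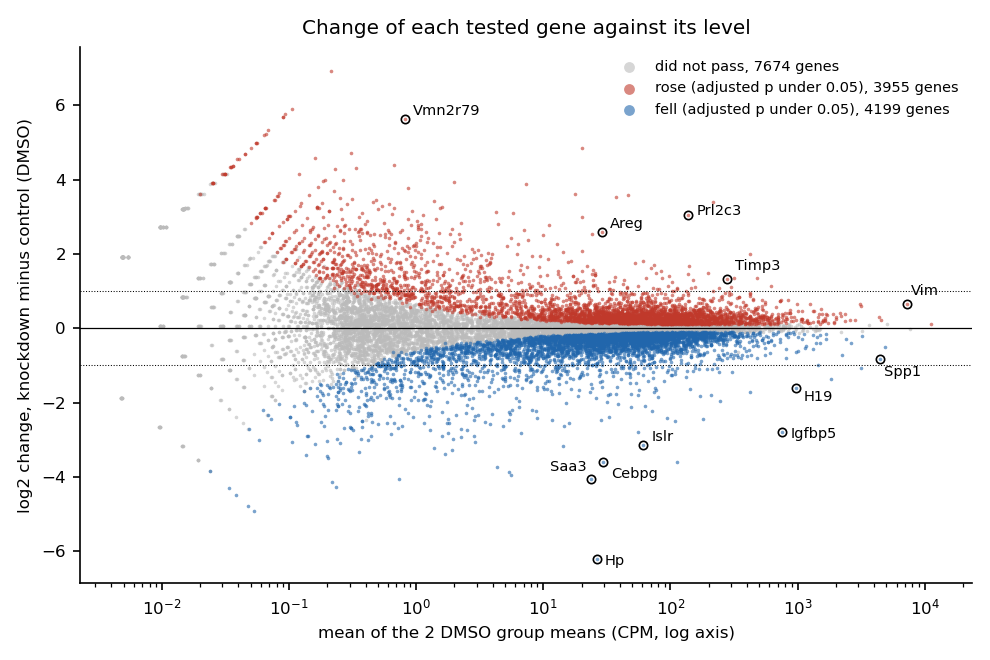
Log2 change of each of the 15828 tested genes (knockdown minus control in DMSO, y axis) against the mean of both group means in CPM (x axis, log scale). Red points rose, blue points fell and grey points did not pass, dotted lines mark changes of 1 and -1, and circles mark named genes. Many of the large changes lie at the left, below 1 CPM, and Igfbp5, H19 and Islr fell from high levels.

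The 15 largest losses and gains described here were taken among genes with a mean of at least 5 CPM in 1 group and no overlap of libraries, so the absence of overlap is part of their selection. Hp, which encodes haptoglobin, the haemoglobin-binding protein of plasma, was at 54.6, 52.7 and 48.3 CPM in control libraries and at 1.07, 0.324 and 0.723 CPM in knockdown libraries, 1.36% of the control mean (log2 change -6.21, SE 0.141, edgeR adjusted p = 6.88e-24). Saa3, an acute phase serum amyloid gene, was at 43.3, 47.2 and 44.9 CPM against 2.98, 2.83 and 2.29 CPM (-4.07, SE 0.222). Igfbp5, which encodes a secreted binder of insulin-like growth factors, fell from a far higher level, 1330, 1403 and 1245 CPM, to 224, 144 and 208 CPM (-2.79, SE 0.202). The 3 genes kept between 1.36% and 14.5% of their control mean.

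Islr, a gene for a secreted leucine-rich protein of stromal cells, was at 106, 110 and 113 CPM in control libraries and at 14.1, 9.32 and 13.6 CPM in knockdown libraries (-3.15, SE 0.127). Ifitm1, an interferon-inducible membrane protein gene, went from 25.7 ± 2 to 2.84 ± 0.317 CPM (-3.18, SE 0.117). Mmp9, a secreted gelatinase gene, went from 11.7 ± 0.681 to 1.65 ± 0.412 CPM (-2.82, SE 0.326). The 3 knockdown libraries lay close together in each of them compared with the distance to the control libraries. The incretin receptor gene Gipr (5.21 ± 0.105 to 0.63 ± 0.25 CPM), the villin-like gene Vill (8.38 ± 0.328 to 1.34 ± 0.185 CPM) and the uncharacterised gene 5830411N06Rik (7.98 ± 0.0667 to 0.608 ± 0.377 CPM) also stood among the 15 largest losses. The rest of these 15, beside Cebpg, were Nxf7, Camp, Mgp, Tnnt1 and C1s1.

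The largest gains mixed skin, contractile, placental and growth factor genes. Prl2c3, a proliferin gene of the prolactin family, was at 31.9, 30.5 and 26.7 CPM in control libraries and at 256, 248 and 232 CPM in knockdown libraries, 8.27 times the control mean (log2 change 3.05, SE 0.0644, edgeR adjusted p = 8.48e-25). Its reads may be shared with near-identical copies such as Prl2c2. The gene 1700012B09Rik was at 4.69, 4.01 and 4.89 CPM against 34.2, 41 and 32.3 CPM (2.98, SE 0.105). Cnn1, which encodes the smooth muscle protein calponin, rose from 7.61, 6.45 and 7.26 CPM to 36.1, 48.2 and 39.5 CPM (2.54, SE 0.121). The knockdown libraries were all high and the control libraries all low.

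Areg encodes amphiregulin, a ligand of the EGF receptor, and was at 8.21 ± 0.382 and 49.2 ± 4.6 CPM (2.58, SE 0.071). Tbc1d2, a gene for a regulator of small GTPases, was at 1.09 ± 0.286 and 7.66 ± 1.24 CPM (2.81, SE 0.167). The noncoding transcript 2010300F17Rik was at 0.876 ± 0.314 and 7.66 ± 0.998 CPM (3.12, SE 0.18) and U90926 at 1.96 ± 0.293 and 12.1 ± 1.01 CPM (2.63, SE 0.129). Lce1g, Serpinb9e, Tinagl1, Acta1, Prr9, Prl2c2, Sprr2h and Fosb completed the 15 largest gains.

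Acute phase and innate defence genes mostly fell. Of 38 listed genes 25 passed the filter on low counts, and of these 16 fell, 3 rose and 6 did not pass, with a median log2 change of -1.36 against 0 over all genes tested. With no filter on low counts the median was -0.44, over 36 genes. Several members of the complement system fell, while C2 and C4b, both under 0.5 CPM in every DMSO library, did not pass. C1s1 and C1ra, the proteases of the first complement complex, were at 96.6 ± 7.57 and 62.5 ± 1.68 CPM in control and at 13.9 ± 2.44 and 15.2 ± 1.17 CPM in knockdown cells. C3, the central complement protein gene, was at 113, 112 and 130 CPM against 27.2, 20.6 and 28.1 CPM (-2.23, SE 0.24, edgeR adjusted p = 5.32e-05), and Serping1, the inhibitor of C1s and C1r, was at 6.64 ± 1.11 against 1.33 ± 0.64 CPM. The copper carrier gene Cp (113 ± 2.6 to 34.7 ± 4.33 CPM) and the protease inhibitor gene Slpi (57.5 ± 1.47 to 16.8 ± 2.12 CPM) fell as well. The 3 that rose were Lcn2 (0.222 ± 0.132 to 0.531 ± 0.104 CPM), Tlr3 and Pla2g5, and the last 2 lost their calls when single libraries were left out. Hpx, Cd14, Ptx3 and Serpina3n, like C2 and C4b, did not pass.

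The promoters of 3 of the genes that fell hold the letters of the C/EBP consensus, and are shown because C/EBP gamma and its relatives bind such sites. Capitals mark TTGCNNAA or its reverse complement, and the stretches end at the base before the RefSeq start (GRCm38.p6, minus strand, chr7:46715677-46715796, chr17:57228137-57228256 and chr9:58158555-58158704).
Saa3: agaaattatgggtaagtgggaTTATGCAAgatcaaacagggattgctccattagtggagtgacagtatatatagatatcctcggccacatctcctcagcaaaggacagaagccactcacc
C3: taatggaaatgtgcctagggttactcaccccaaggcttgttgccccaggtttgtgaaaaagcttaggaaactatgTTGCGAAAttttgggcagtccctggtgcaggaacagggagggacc
Islr: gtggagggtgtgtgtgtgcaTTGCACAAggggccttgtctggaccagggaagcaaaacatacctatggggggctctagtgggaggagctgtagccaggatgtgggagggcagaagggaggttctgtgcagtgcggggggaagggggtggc

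A match of letters is a description and not a measured site. Promoters here are 300 bases, 250 before and 50 after each RefSeq start, searched on both strands. TTGCNNAA stood in 13.0% of the 493 promoters of genes that fell by at least 1, in 9.47% of the 665 of genes that rose by at least 1, in 8.49% of the 6557 of genes that did not pass and in 10.8% of all 32851. The 493 promoters came from 380 gene symbols and the 665 from 534, against 610 and 800 genes that changed. Some genes thus count more than once and others not at all. TGATGNAA, the core of the C/EBP-ATF element, stood in 4.06%, 4.21%, 2.56% and 3.97% of the same sets. TGANTCA, the AP-1 site, stood in 9.13%, 12.5%, 5.55% and 7.81%, and TGACGTCA, the cAMP response element, in 1.01%, 1.2%, 2.67% and 1.79%. In the 14340 promoters of all genes tested these motifs stood, in the same order, in 8.4%, 2.49%, 5.91% and 2.85%. No stretch of letters meets more than 1 of these motifs. The median GC content of the first 4 sets was 56.3%, 55.7%, 59.3% and 52.7%, and that of all genes tested 60%. The part of GC content in these shares was not tested.

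Signalling genes of inflammation moved in both directions. Osmr, the oncostatin M receptor gene, was at 84.7, 82.7 and 92.1 CPM in control libraries and at 27.7, 24.5 and 29.4 CPM in knockdown libraries (-1.67, SE 0.0623, edgeR adjusted p = 1.01e-19). Stat3, the transcription factor behind that receptor, was at 144 ± 1.14 against 98.1 ± 5.24 CPM (-0.55, SE 0.0512). In the same IL-6 family list the ligand genes Il11 (2.78 ± 0.295 to 8.05 ± 0.457 CPM) and Lif (13.3 ± 0.596 to 27 ± 1.96 CPM) rose, and the list counted 5 gains and 8 losses in 15 tested genes. Of 18 tested chemokine ligand genes 6 fell and 3 rose, a share near the background, with losses of Ccl9 (20.3 ± 2.04 to 6.05 ± 0.653 CPM) and of the abundant Cxcl1 (208 ± 19.1 to 125 ± 8.29 CPM). NF-kappaB subunits and feedback targets counted 9 losses and 4 gains in 19 genes, led by the subunit gene Relb (34.8 ± 1.96 to 18.2 ± 0.63 CPM). Among 31 interferon response genes 10 fell and 5 rose, also a share near the background, with Ifi27 at 77.2 ± 0.798 against 45 ± 2.15 CPM.

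Relatives of Cebpg in the basic leucine zipper family mostly fell. Of 32 tested members, Cebpg among them, 18 fell and 6 rose, and the median change was -0.22. Cebpa, which lies on chromosome 7 (35119293 to 35121928 in GRCm38) near Cebpg (35046422 to 35056573), was at 24.5, 25.8 and 25.3 CPM in control libraries and at 4.69, 4.28 and 3.39 CPM in knockdown libraries (-2.62, SE 0.105, edgeR adjusted p = 7.26e-20). Maf, a large Maf factor gene, was at 12.1 ± 0.941 against 5.42 ± 0.91 CPM, whereas its small partner Mafk was at 21.7 ± 0.394 against 45 ± 4 CPM (1.05, SE 0.0617). The ER-bound factor genes Atf6 (129 ± 3.31 to 81.4 ± 2.69 CPM) and Creb3l1 (396 ± 9.09 to 239 ± 0.896 CPM) fell as well.

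Genes of amino acid supply, the classical targets of ATF4, moved in both directions. Of 24 amino acid transporter genes 10 fell and 3 rose, 54.2% together against 51.5% of all genes and 56.1% of protein-coding genes, a share near the background. The glycine carrier gene Slc6a9 was at 15.9, 12.5 and 16 CPM against 4.56, 5.4 and 4.86 CPM (-1.58, SE 0.102, edgeR adjusted p = 1.84e-13), the cystine carrier gene Slc7a11 at 8.48 ± 1.93 against 3.32 ± 0.325 CPM, and the leucine carrier gene Slc7a5 at 293 ± 19.5 against 177 ± 2.69 CPM. Asns, which makes asparagine, was at 202, 187 and 220 CPM against 117, 135 and 111 CPM (-0.75, SE 0.0577), and its list counted 8 losses and 4 gains in 16 tested genes. Serine and one-carbon enzymes counted 9 losses and 6 gains in 17. Psat1, a later step of serine synthesis, fell (396 ± 24.5 to 226 ± 8.55 CPM), while Phgdh, the first step, rose (331 ± 11 to 442 ± 41.8 CPM), and so did Aldh1l1, the cytosolic formyltetrahydrofolate dehydrogenase gene (0.54 ± 0.133 to 3.12 ± 0.182 CPM). The 21 tRNA synthetases split evenly into 7 gains, 7 losses and 7 that did not pass. The Asns promoter is shown for its C/EBP-ATF element core, in capitals (GRCm38.p6, minus strand, chr6:7693210-7693329).
Asns: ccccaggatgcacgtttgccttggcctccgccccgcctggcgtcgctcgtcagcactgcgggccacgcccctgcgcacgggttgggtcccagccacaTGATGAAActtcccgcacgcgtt

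Stress sensors and ER folding genes shifted by small amounts. Of 12 eIF2alpha kinase and phosphatase genes 6 fell and 3 rose. Eif2ak4, the kinase GCN2 that senses uncharged tRNA, was at 58.5 ± 2.39 against 38.7 ± 2.92 CPM (-0.59, SE 0.0599), and Ppp1r15a, the inducible phosphatase subunit, was at 40.3 ± 1.43 against 66.5 ± 5.27 CPM (0.72, SE 0.0629). ER-associated degradation genes counted 11 losses and 3 gains in 20, with Sel1l at 158 ± 6.31 against 120 ± 8.26 CPM. In the 19 ER chaperone genes 8 fell, Hspa5 among them (1698 ± 56.6 to 1298 ± 21.6 CPM), and 4 rose. No member of these 3 lists changed by 1 or more.

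In 3 lists of collagen and proteoglycan genes more members fell than rose. Of 11 fibrillar collagen genes 6 fell and 1 rose. Of 14 tested genes for network, beaded and fibril-associated collagens 9 fell and 3 rose, with a median of -0.83 that became -0.08 over 20 genes with no filter on low counts. Of 8 small leucine-rich proteoglycan genes 5 fell and 1 rose, with a median of -0.79 that became -0.43 with no filter and -0.41 to -0.49 without control replicate 1 or 3 or knockdown replicate 1 or 2, where 9 genes were tested. Col5a3 was at 329, 323 and 313 CPM in control libraries and at 95.7, 84.1 and 99.5 CPM in knockdown libraries (-1.79, SE 0.0908, edgeR adjusted p = 1.36e-09). Col6a2, of the beaded filaments around muscle cells, was at 258, 264 and 277 CPM against 85.4, 61.1 and 79.9 CPM (-1.82, SE 0.161). Ogn, the proteoglycan osteoglycin, was at 160, 150 and 166 CPM against 34.2, 23.1 and 32.3 CPM (-2.41, SE 0.14). Its relative Bgn, biglycan, went the other way (534 ± 13 to 628 ± 11.3 CPM).

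The basement membrane, cell contact and protease genes split into rising and falling members. Of 24 basement membrane genes 11 fell and 9 rose. The collagen genes Col4a2 (290 ± 5.86 to 554 ± 30.2 CPM) and Col18a1 (184 ± 7.58 to 356 ± 12.5 CPM) and the epithelial laminin chain gene Lamb3 (14 ± 0.768 to 37.3 ± 1.53 CPM) were among the gains. Of 33 matrix protease and inhibitor genes 14 fell and 13 rose, and 9 rose by at least 1. The urokinase receptor gene Plaur (97.9 ± 4.01 to 212 ± 14.2 CPM) and the urokinase gene Plau (193 ± 4.76 to 380 ± 13.6 CPM) were among the 13 that rose. Timp3, a metalloprotease inhibitor bound to matrix, was at 155, 138 and 179 CPM against 382, 368 and 435 CPM (1.33, SE 0.122), and Mmp13, a collagenase gene, was at 0.52 ± 0.201 against 3.31 ± 0.534 CPM.

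Among 21 integrin subunit genes 9 fell and 6 rose. Itga6, a laminin receptor subunit, rose (72.6 ± 3.08 to 151 ± 5.85 CPM) while its usual epithelial partner Itgb4 fell (15.1 ± 0.261 to 5.44 ± 0.351 CPM). Cadherin and gap junction genes counted 9 gains and 4 losses in 19, with Cdh2, N-cadherin, at 92.3 ± 3.78 against 197 ± 2.15 CPM. The 21 matricellular genes held 9 gains and 8 losses, with Thbs1, thrombospondin 1, at 619 ± 13.7 against 1050 ± 38.3 CPM and Ccn5 at 16.1 ± 0.402 against 6.03 ± 0.926 CPM.

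Growth factor ligand genes counted more gains than losses. Of 39 tested, 21 rose and 8 fell, with a median of 0.61 that became 0.36 without knockdown replicate 2. The EGF receptor ligand genes Ereg and Hbegf moved as Areg did. Ereg was at 34.1, 34.8 and 34.9 CPM in control libraries and at 107, 103 and 111 CPM in knockdown libraries (1.63, SE 0.0495, edgeR adjusted p = 6.05e-23), and Hbegf was at 36.1, 33.7 and 38.1 CPM against 88.9, 97.1 and 89.8 CPM (1.35, SE 0.0591). The fibroblast growth factor gene Fgf10 (2.17 ± 0.494 to 10.4 ± 0.603 CPM) and the macrophage factor gene Csf1 (770 ± 35.8 to 1204 ± 29.3 CPM) also rose.

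The 4 ligand genes that fell by at least 1 encode growth factors made by stromal cells. Ptn, pleiotrophin, was at 51.7, 42 and 57.3 CPM against 14.5, 9.38 and 14.1 CPM (-1.99, SE 0.152, edgeR adjusted p = 3.89e-07). Hgf (131 ± 9.74 to 58.3 ± 9.86 CPM), Fgf7 (227 ± 9.09 to 106 ± 6.62 CPM) and Angpt1 (152 ± 8.41 to 71.9 ± 8 CPM) were the others. Receptor tyrosine kinases split into 12 gains and 12 losses in 34 genes. The PDGF receptor genes Pdgfra (49.9 ± 2.82 to 22.2 ± 2.88 CPM) and Pdgfrb (212 ± 1.44 to 101 ± 4.9 CPM) fell, and Epha2 (103 ± 2.91 to 289 ± 13.3 CPM) and Fgfr2 (0.665 ± 0.0262 to 3.34 ± 0.153 CPM) rose.

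In the IGF list 9 of 17 tested genes fell and 3 rose, and both abundant binding protein genes fell. Igfbp2 was at 2621, 2837 and 2537 CPM in control libraries and at 1036, 1064 and 985 CPM in knockdown libraries (-1.37, SE 0.0458, edgeR adjusted p = 7.09e-22). Igfbp3 rose, from 0.55 ± 0.109 to 2.53 ± 0.318 CPM. In the TGF-beta and BMP list 13 of 33 fell and 11 rose. The activin antagonist gene Fst, follistatin (8.07, 7.19 and 7.72 CPM against 32.9, 34 and 31.2 CPM, log2 change 2.09, SE 0.0778), rose with the activin subunit gene Inhba (207 ± 25.6 to 391 ± 31.5 CPM) and the inhibitory Smad7 (48.2 ± 0.48 to 123 ± 3.29 CPM).

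The WNT, NOTCH and axon guidance lists each moved both ways. WNT genes counted 14 losses and 12 gains in 39, with Wnt10a falling (36.4 ± 1.17 to 12 ± 0.863 CPM), as did the R-spondin receptor gene Lgr4 (153 ± 7.18 to 64.7 ± 4.68 CPM), and Wnt4 rising (7.02 ± 0.57 to 24.1 ± 3.88 CPM). In the NOTCH list 8 rose and 5 fell in 16. Notch3, the receptor of mural and myogenic cells, fell (140 ± 4.43 to 65.5 ± 11.4 CPM) with its target Heyl (2.49 ± 0.476 to 0.265 ± 0.121 CPM), and the ligand gene Jag1 rose (23.7 ± 1.74 to 39.6 ± 2.07 CPM). Axon guidance genes counted 20 gains and 17 losses in 48. Among 23 tested HOX genes 9 fell and 4 rose, 56.5% together and near the background. The 13 calls became 8 without knockdown replicate 3. Of 21 imprinted genes 6 fell and 4 rose, 47.6% against 51.5% of all genes, with losses of Peg3 (207 ± 2.61 to 104 ± 12.5 CPM) and Zim1 (22.3 ± 2.07 to 8.12 ± 1.28 CPM) beside that of H19 below.

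Muscle identity genes counted more losses than gains, and actin cytoskeleton genes more gains than losses. Of 24 myogenic factors 12 fell and 4 rose. Myog, the factor that starts muscle differentiation, was at 4.43, 5.53 and 3.15 CPM in control libraries and at 0.906, 0.472 and 0.608 CPM in knockdown libraries (-2.73, SE 0.221, edgeR adjusted p = 6.28e-12), with no overlap. Sarcomere genes counted 13 losses and 9 gains in 30, with the largest change a gain, of the skeletal actin gene Acta1 (7.17 ± 1.1 to 85.7 ± 16.1 CPM). The list's summed level was 3990 to 4087 CPM in control and 4076 to 4502 CPM in knockdown libraries. Losses were found in the acetylcholine receptor subunit gene Chrnd (15.5 ± 1.72 to 5.76 ± 0.745 CPM) and the fast light chain gene Mylpf (3.46 ± 0.395 to 1.43 ± 0.369 CPM). Chrna1, a more abundant subunit gene of the same receptor and a myoblast marker, rose (360 ± 15.2 to 500 ± 8.92 CPM). In the list of actin cytoskeleton and SRF target genes 15 of 34 rose and 7 fell. Acta2, smooth muscle actin, was at 2461, 2510 and 2556 CPM against 3689, 4039 and 3617 CPM (0.59, SE 0.0474), Ankrd1 at 548 ± 18.8 against 906 ± 54.4 CPM and Myl9 at 82.6 ± 2.39 against 140 ± 17.6 CPM.

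In the lists of fat, sugar and oxygen response genes more members fell than rose. Cholesterol and fatty acid synthesis counted 26 losses and 3 gains in 35 genes, with a median of -0.26. The desaturase gene Scd2 was at 1040, 1028 and 1015 CPM against 619, 547 and 605 CPM (-0.8, SE 0.0443, edgeR adjusted p = 2.67e-16), and Hmgcs1, an early step of sterol synthesis, was at 141 ± 5.89 against 91.7 ± 7.28 CPM. Fasn, the fatty acid synthase gene, rose (382 ± 23.6 to 515 ± 14.4 CPM). Of 31 glycolysis and hypoxia genes 17 fell and 7 rose. The summed level of this list was not lower, at 12784 to 13732 CPM in control and 12924 to 14362 CPM in knockdown libraries. The pyruvate dehydrogenase kinase gene Pdk1 was at 75.3, 81.7 and 80.2 CPM against 28.2, 26.8 and 30.2 CPM (-1.48, SE 0.0681). Pfkl, liver phosphofructokinase, was at 316 ± 12.4 against 179 ± 4.11 CPM, whereas the last glycolytic kinase gene Pkm rose (2050 ± 108 to 2649 ± 150 CPM).

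Autophagy and lysosome genes counted 17 losses and 7 gains in 38, with Atg13 at 63 ± 1.82 against 39.5 ± 2.43 CPM. Among nuclear genes of the respiratory chain 17 of 46 rose and 1 fell, and of 10 tested transcripts of the mitochondrial genome 6 rose and 0 fell. The largest gain of the latter was in mt-Nd1 (2474, 2401 and 2401 CPM against 3733, 4110 and 3608 CPM, log2 change 0.65, SE 0.054). The call of mt-Co1 (10870 ± 234 to 11717 ± 149 CPM) was lost with scaling by library size only and when single libraries were left out.

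Beside the ER and autophagy lists, where losses were more numerous, 5 other lists of protein synthesis, folding and breakdown counted more gains than losses, all under 1. Of 35 proteasome subunits 31 rose and 2 fell, both of the latter immune-type activator subunits (Psme1 and Psme2), with a median of 0.29. The call of Psme2 (-0.14) was lost under upper quartile scaling and without 4 of the single libraries (adjusted p up to 0.11). Psmb3 was at 145, 151 and 138 CPM in control libraries and at 200, 212 and 183 CPM in knockdown libraries (0.46, SE 0.0516, edgeR adjusted p = 7.57e-09). Cytosolic heat shock genes counted 20 gains and 0 losses in 23, with a median of 0.29, and mitochondrial chaperones and proteases 9 gains and 3 losses in 16, led by the chaperonin lid gene Hspe1 (155 ± 15.9 to 274 ± 5.7 CPM). Translation initiation factors counted 23 gains and 3 losses in 36, with Eif5a at 1139 ± 48.5 against 1574 ± 99.9 CPM. Among 43 cytosolic ribosomal protein genes 25 rose and 0 fell, and over all 77 tested genes with Rpl or Rps symbols 46 rose and 0 fell, with a median of 0.19. Short transcripts moved up in general: the median change of protein-coding genes went from 0.07 in the fifth with the shortest exons to -0.06 in the fifth with the longest, and its part in these small gains was not tested.

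Mitosis genes rose by small amounts. Of 26 mitosis genes 18 rose and 0 fell, with a median of 0.23 and Kif23, of the dividing cell's midzone, at 92.5, 91.8 and 92.7 CPM against 136, 138 and 132 CPM (0.55, SE 0.0477, edgeR adjusted p = 1.56e-11). DNA replication genes counted 8 gains and 3 losses in 31, 35.5% against 51.5% of all genes, and the 11 calls became 7 without knockdown replicate 1. Rrm2, the ribonucleotide reductase subunit, rose (556 ± 6.8 to 932 ± 18 CPM) and the helicase subunit gene Mcm2 fell (198 ± 3.15 to 164 ± 4.86 CPM). Genes of G1 cyclins and CDK inhibitors counted 8 gains and 8 losses in 22. The 2 related inhibitors moved apart, Cdkn1a up (333 ± 6.32 to 476 ± 16.2 CPM) and Cdkn1b down (93.2 ± 1.57 to 56.3 ± 3.49 CPM). Target genes of p53 counted 20 gains and 3 losses in 24, with a median of 0.52, among them Ddit4l (1.64 ± 0.43 to 6.11 ± 0.219 CPM) and the kinase gene Plk3 (27.1 ± 0.748 to 53.5 ± 4.39 CPM).

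Immediate early genes rose in 20 of 28 tested and fell in 4, with a median of 0.53. Fos was at 10.3, 9.43 and 8.33 CPM against 22.4, 26.8 and 25.4 CPM (1.41, SE 0.092, edgeR adjusted p = 3.86e-14), and Dusp5, a phosphatase that returns ERK to rest, at 40.5 ± 0.484 against 114 ± 5.88 CPM. The losses were in Egr1 (155 ± 8.21 to 85.8 ± 10.3 CPM), Egr2, Egr3 and Jun (648 ± 16.4 to 451 ± 4.95 CPM). Genes of NRF2 and glutathione transfer counted 16 gains and 8 losses in 34. Gsta1 and the pentose phosphate gene Tkt (73.6 ± 6.42 to 121 ± 5.82 CPM) rose, and Gstt1 (5.05 ± 0.199 to 1.56 ± 0.164 CPM) and Aldh3a1 (86.1 ± 2.44 to 36.1 ± 3.76 CPM) fell. Cysteine and glutathione enzymes counted 9 gains and 2 losses in 18.

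Epidermal genes rose from low levels, and clade B serpins rose as well. Of 46 listed cornified envelope and epidermal cluster genes 20 passed the filter on low counts, 26 were too low to test, and of the 20 tested 15 rose and 0 fell. A gene that is low in control cells could pass the filter through its level in another group, so the count is given as a description. The keratinocyte envelope gene Lor was at 0.269 ± 0.0991 CPM in control and 1.9 ± 0.308 CPM in knockdown cells, and Sprr2h was at 1.05, 1.17 and 1.36 CPM against 9.19, 12.2 and 9.61 CPM (3.11, SE 0.166, edgeR adjusted p = 1.02e-16). Clade B serpins counted 14 gains and 0 losses in 16, with the plasminogen activator inhibitor gene Serpinb2 at 87.4 ± 3.99 against 214 ± 4.36 CPM. Members of the Lce, Sprr, Serpinb9 and Prl2c families are near copies, so the split of reads among them is uncertain. Among the motifs searched, that of AP-1 had the highest share in genes that rose by at least 1, and its part in the gains was not tested. The promoter of Prr9, an epidermal cluster gene that rose from 5.86 ± 0.635 to 68.4 ± 2.49 CPM, holds its letters, in capitals (GRCm38.p6, minus strand, chr3:92123948-92124107).
Prr9: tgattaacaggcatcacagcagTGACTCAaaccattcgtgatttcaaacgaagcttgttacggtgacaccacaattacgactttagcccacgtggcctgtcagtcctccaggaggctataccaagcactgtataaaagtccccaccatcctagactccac

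Markers of other cell types were read beside these gains. Of 13 epithelial markers 9 were tested, 5 rose and 0 fell, and their summed level was 28.9 to 32.3 CPM in control and 39.2 to 40.3 CPM in knockdown libraries, most of it from Krt14, which did not pass, and Krt19 (15.1 ± 1.29 to 21.8 ± 0.65 CPM). Of 11 leukocyte markers 2 were tested and both rose, with sums of 3.9 to 4.3 against 4.82 to 7.37 CPM, and of 9 endothelial markers 3 of 5 tested rose, with sums of 4.23 to 5.23 against 6.08 to 7.05 CPM. Neural markers counted 3 gains and 2 losses in 7 tested of 12 (178 to 179 against 254 to 273 CPM), with the largest gain in CPM in the neurofilament gene Nefm (59.5 ± 0.344 to 131 ± 3.61 CPM). Of 12 fibroblast markers 6 fell and 2 rose in 10 tested. Their sum was 9045 to 9558 against 10714 to 11583 CPM, in which Vim (5614 ± 234 to 8871 ± 576 CPM) outweighed the losses, among them the surface marker gene Ly6a (214 ± 5.2 to 69.3 ± 7.98 CPM). Adipocyte markers stood at 157 to 162 against 99.4 to 103 CPM, with 2 gains and 1 loss in 4 tested of 10. The lipase gene Lpl fell (130 ± 2.59 to 49.2 ± 3.9 CPM) and Pparg rose (17.9 ± 1.32 to 35.7 ± 2.5 CPM). The part of other cell types in the knockdown results was not tested.

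Some of the changed genes were neighbours among the genes tested. Untested genes can lie between such neighbours, and the runs described here spanned 27.5 to 1664 kb. In 19 places at least 3 neighbouring protein-coding genes, in the order of the 13508 tested, changed by 1 or more in the same direction, 11 up and 8 down, with 70 genes in all out of the 1410. A run of 3 genes rests on each of its calls, and some members lost theirs under at least 1 alternative, as given below. On chromosome 6 (124493113 to 124542359 in GRCm38) C1rl, C1ra and C1s1 fell, at -1.59, -2.04 and -2.8. C1s2, a near copy of C1s1, also fell (3.91 ± 0.336 to 0.6 ± 0.154 CPM) and C1rb did not pass (0.327 ± 0.13 and 0.307 ± 0.13 CPM); both were looked at after their values were seen. On chromosome 7 (140967221 to 141072400) Ifitm1, Ifitm3, Ifitm6 and B4galnt4 fell, and Ifitm3 was the most abundant (420 ± 31.1 to 185 ± 1.52 CPM, log2 change -1.18, SE 0.0496). The carbonic anhydrase genes Car1, Car3 and Car2 fell on chromosome 3 (14766216 to 14900770), with Car3 at 46.7, 48.5 and 48.3 CPM against 8.25, 8.53 and 9.09 CPM (-2.47, SE 0.0692, edgeR adjusted p = 6.14e-24). Car1, under 0.4 CPM in every DMSO library, lost its call when single libraries were left out (adjusted p up to 0.115).

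On chromosome 9 (58063788 to 58204319) Stra6, which encodes the retinol transporter, Islr and Islr2 fell. Islr2 (58196297 to 58204319) overlaps the annotated span of Islr (58156268 to 58204306) on the same strand. Stra6 was at 3.41, 4.27 and 4.37 CPM against 0.421, 0.442 and 0.694 CPM (-2.93, SE 0.235, edgeR adjusted p = 2.51e-12). Members of the clustered protocadherin families fell. Of 22 annotated Pcdhb genes 14 were tested, of which 11 fell and 0 rose, with Pcdhb22 at 10.3 ± 0.407 against 4.28 ± 0.303 CPM. Of 21 annotated Pcdhg genes 10 were tested, of which 6 fell and 0 rose. Of 9 annotated Ugt1a genes 3 were tested, and these 3 fell on chromosome 1 (88095062 to 88220002) from levels under 1 CPM. A gene low in knockdown cells could pass the filter through its level in control cells, so these counts are a description. Pcdhg genes share exons, as do the Ugt1a genes, so reads cannot be assigned to single members with certainty. Other runs of losses joined Tmprss6, Il2rb and C1qtnf6, the last from 131 ± 3.06 to 64.9 ± 3.5 CPM, and Igsf5, Itgb2l and Dscam. Il2rb, Itgb2l, Dscam, Islr2 and Ugt1a6a lost their calls under at least 1 alternative.

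Runs of gains held paralogues in most places. The carboxylesterase genes Ces2e, Ces2f and Ces2g rose on chromosome 8 (104926260 to 104969537), where Ces2g was at 0.146, 0.115 and 0.116 CPM against 1.26, 1.45 and 0.926 CPM (3.23, SE 0.439, edgeR adjusted p = 1.91e-07), and Ces2f had 0 reads in the control libraries. The adhesion receptor genes Adgrg5, Adgrg1 and Adgrg3 rose elsewhere on that chromosome (94923694 to 95045250), Adgrg3 from 27.3, 25.7 and 28.4 CPM to 91.8, 98 and 97.2 CPM (1.82, SE 0.0592). Serpinb9c, Serpinb9d, Serpinb9e, Serpinb9f and Serpinb9g rose together on chromosome 13 (33149275 to 33496004), and all 7 tested genes with a Serpinb9 symbol rose. Glutathione transferase genes of chromosome 9 (Gsta1, Gm3776 and Gm10639) rose from about 1 CPM or less. A run on chromosome 1 (93015464 to 93231072) held no paralogues: Kif1a, a neuronal motor gene, was at 2.59, 2.92 and 3.35 CPM against 16.2, 17 and 17.6 CPM (2.51, SE 0.119), and 2310007B03Rik and Crocc2 rose beside it. In other runs of gains Txk, Tchh and Sprr2b, all under 1 CPM in every DMSO library, lost their calls under at least 1 alternative.

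Of 67 annotated genes with replication-dependent histone symbols 44 passed the filter, and 22 rose and 2 fell. Here too a gene low in control cells could pass through its level in another group, so the count is a description. Hist1h2ad, for example, had 0 reads in the control libraries. Hist1h2be was at 0.612, 0.888 and 1.07 CPM against 2.36, 2.45 and 2.55 CPM (1.51, SE 0.22, edgeR adjusted p = 1.03e-06), in a run with Hist1h2ad, Hist1h3d and Hist1h4d. Hist1h2bp, of the other histone run, lost its call without control replicate 1 (adjusted p = 0.157). Most such messages have no poly(A) tail and the libraries were made from poly(A) RNA, so these values describe only the part that was captured.

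A few genes were near silent in control cells and had a mean of at least 0.5 CPM after knockdown. Vmn2r79, which belongs to a large family of pheromone receptor genes with near copies, had 3 reads over the 3 control libraries and 160 over the knockdown libraries, a ratio of 55.7 per effective library size with an exact 95% interval of 18.7 to 273. The potassium channel gene Kcnj4 had 2 against 59 reads (ratio 30.8, interval 8.16 to 260), the kallikrein gene Klk9 had 3 against 63 (21.9, interval 7.17 to 109) and the interferon-linked gene Ifi27l2b had 3 against 51 (17.8, interval 5.74 to 89). These intervals cover counting error only. The genes were selected on the same reads, so large ratios follow from the selection. No protein-coding gene met the same rule, at most 3 reads in one group and a mean of at least 0.5 CPM in the other, in the opposite direction.

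Of 1572 long noncoding genes tested, 215 rose and 205 fell, 26.7% together, against 51.5% of all genes. H19, an imprinted growth-restraining RNA of embryonic muscle, was at 1402, 1515 and 1456 CPM against 484, 457 and 480 CPM (-1.62, SE 0.0505, edgeR adjusted p = 2.39e-22). The others with the largest losses were Gm42047 (50.4 ± 5.9 to 14.3 ± 1.12 CPM), Gm43268, A330074K22Rik and Gm44509. Beside 2010300F17Rik the largest gains were in Mirt1 (1.02 ± 0.227 to 4.51 ± 0.823 CPM), Gm26651, Gm20544 and Mir17hg, the host transcript of the miR-17 cluster (2.63 ± 0.3 to 6.76 ± 1.01 CPM). Strand use in counting is not stated in the labels, so reads of overlapping or antisense genes cannot be separated.

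The 8 largest losses in CPM were of H19 and of 7 genes for secreted proteins, Igfbp2 and Igfbp5 among them. Spp1, osteopontin, was at 5686, 5861 and 5412 CPM in control libraries and at 3327, 3027 and 3148 CPM in knockdown libraries (-0.84, SE 0.0454, edgeR adjusted p = 1.69e-16). Col3a1 went from 4238 ± 64.2 to 2034 ± 189 CPM, Fn1, fibronectin, from 5757 ± 142 to 4043 ± 298 CPM, Col1a2 from 2772 ± 42.5 to 1679 ± 124 CPM and Fstl1 from 1929 ± 95.2 to 975 ± 53.4 CPM. The largest gains in CPM were in Vim, mt-Nd1, Acta2, Hsp90ab1 (3956 ± 114 to 4852 ± 107 CPM), mt-Co1, mt-Cytb (4191 ± 32.8 to 4931 ± 198 CPM), Pabpc1 (1859 ± 16 to 2485 ± 88.3 CPM) and Pkm, which encode proteins of the cytoskeleton, the mitochondrion, folding, translation and glycolysis and none that is secreted.

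The knockdown effect in DMSO was set against that in cells given thapsigargin for 6 h. The 2 contrasts share no library, but they share the 2 cell populations. Of the 1410 genes changed by at least 1 in DMSO, 897 (63.6%) were called in the same direction under thapsigargin, 42 in the opposite direction and 471 not at all, where 56.9% of all genes tested were called, 28.5% higher and 28.4% lower. The median change of the genes that rose was 1.64 in DMSO and 0.95 under thapsigargin, and of those that fell -1.44 and -1.05. The genes were selected on their size in DMSO, so their values there are large by selection. A test of the difference between the effects passed in 524 of them (37.2%), against 35.4% of all genes. The effect was smaller or reversed under thapsigargin in 450, and larger in the same direction in 74. Some reversed effects were the larger in size, such as that of Lcn2 (1.25 in DMSO and -2.63 under thapsigargin).

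The 30 largest changes among genes of at least 5 CPM all kept their direction under thapsigargin with no overlap of libraries, and the difference between the effects passed in 15. Changes of genes at lower levels did not all do so: Ces2f, with 0 control reads in DMSO, was at 0.548 CPM in control and 0.485 CPM in knockdown cells under thapsigargin. Hp, Islr, C1s1 and Prl2c3 were among those in which it did not pass, with log2 changes of -5.7, -3.27, -2.85 and 3.29 under thapsigargin and differences of 0.51, -0.12, -0.06 and 0.24. Stra6 differed (1.57, edgeR adjusted p = 0.00103), and so did Cebpa (2.2, edgeR adjusted p = 6.58e-13). The control level of Cebpa was 25.2 ± 0.659 CPM in DMSO and 6.31 CPM on average under thapsigargin, against 4.12 ± 0.668 and 4.75 CPM in knockdown cells, so the control level moved toward that of knockdown cells. Of the 42 genes with opposite calls 37 rose in DMSO. Als2cl, named after its values were seen, was at 0.463 ± 0.156 against 1.73 ± 0.188 CPM in DMSO and at 8.75 against 2.02 CPM under thapsigargin (difference -4, edgeR adjusted p = 1.53e-12).

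**Figure D2:**
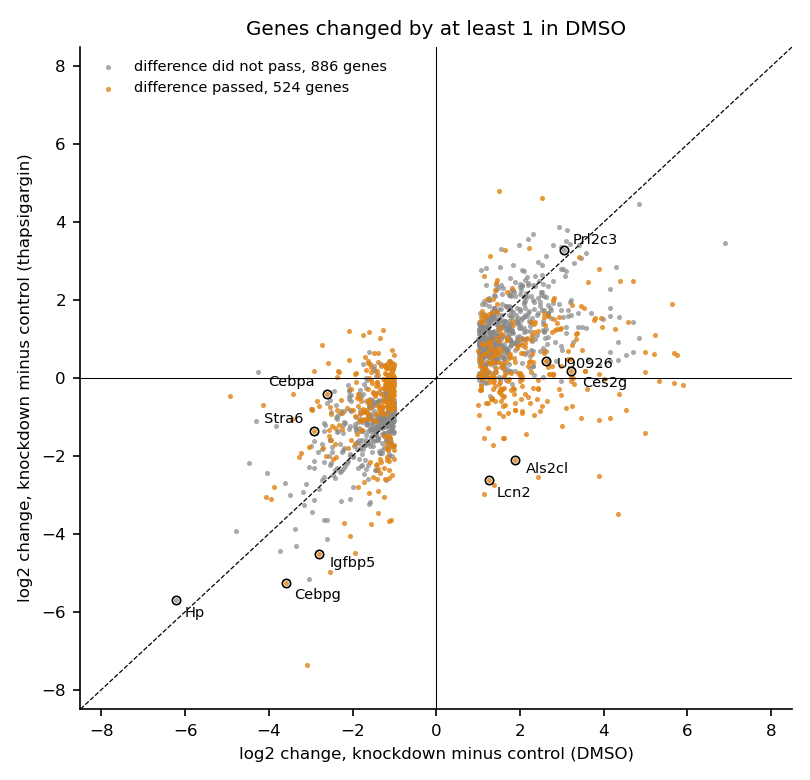
Log2 change with knockdown under thapsigargin (y axis) against that in DMSO (x axis) for the 1410 genes changed by at least 1 in DMSO. Orange points are the 524 in which the difference between the effects passed, grey points the rest, the dashed line marks equal effects and circles mark named genes. Most orange points lie closer to zero on the y axis than the dashed line, and Igfbp5 and Cebpg lie beyond it.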

How the data were processed

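RNA was measured by poly(A) sequencing in 12 libraries, 3 per group. Per the submitters' processing notes the tools were Trim Galore, STAR 2.5.3a, bedtools 2.31.0 and DESeq2 and the builds mm10 and hg38. The counting tool and strand setting are not given in the sources used here. The deposited values were raw read counts per mouse gene. Entries that name no gene (14.1 to 14.6% of reads in the 6 DMSO libraries) were left out, and 53706 of 53801 gene IDs matched GENCODE vM21 (GRCm38).

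Counts were tested with edgeR 4.0.16 (TMM, filterByExpr, robust quasi-likelihood fit over all 4 groups, Benjamini-Hochberg adjustment over 15828 genes, threshold 0.05) in R 4.3.3. The biological coefficient of variation was 4.67%, with 8 residual degrees of freedom. SE is the absolute log2 change over the square root of F, an approximation. No replicates were identical. The script was tested on simulated data.

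The comparison, the members and the lists were chosen with earlier results of these data known. Named genes were the 15 largest changes per direction (mean of at least 5 CPM in 1 group, no overlap), the 8 largest gains and losses in CPM, near-silent genes, up to 6 per list and direction, runs of neighbours and 5 noncoding genes per direction. Lcn2, C2, C4b, Cp, Slpi, Atf6, Creb3l1, Plau, Csf1, Serpinb2 and Krt14 fall outside this rule and were chosen after their values were seen. Chrna1, Hpx, Cd14, Ptx3 and Serpina3n were also named after their values were seen. The 16 alternatives included DESeq2 1.42.0 and limma 3.58.1. Promoters came from RefSeq (GRCm38.p6). Figures were drawn with matplotlib 3.10.9.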

Additional observations from a re-analysis of the deposited data

Results flagged for a closer look

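In 15 of the 30 genes with the largest changes in DMSO, the test of the difference between the knockdown effect under thapsigargin and that in DMSO passed (edgeR, adjusted p under 0.05), and these values are thapsigargin minus DMSO on the log2 scale. Among the genes that fell, the loss was smaller under thapsigargin in Saa3 (1.02), Nxf7 (0.84), Camp (1.07), Gipr (1.29) and Vill (0.65). It was larger in Cebpg (-1.66), whose control level was 55 CPM in DMSO and 216 CPM under thapsigargin, and in Igfbp5 (-1.73). Among the genes that rose, the gain was smaller under thapsigargin in U90926 (-2.2), Areg (-1.93), Prr9 (-1.74), Tinagl1 (-1.16), Serpinb9e (-1.07), Fosb (-0.78), Tbc1d2 (-0.75) and Prl2c2 (-0.3). The 30 genes were chosen for their size in DMSO, and 35.4% of all genes tested passed the same test.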

How the results depend on the processing

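Over the 16 alternatives no named gene changed direction, and 52 of 599 lost their call under at least 1. Leaving out 1 library at a time gave 7338 to 7817 called genes, against 8154. With the replicate block 8280 were called, 8115 of them shared. Same-numbered libraries had correlations of -0.00883 to 0.0767 over 3 pairs, and libraries of unlike number -0.0849 to 0.0209. The labels do not say whether same-numbered libraries share a batch, and 3 pairs cannot decide it. No named list count moved past 1.5 times under the block. The share of gains among calls was 48.5%, and 44.1% to 51.5% under other scalings. The 800 genes that rose by at least 1 became 492 with the stricter filter (at least 1 CPM in at least 3 libraries), which tested 12973 genes, and 584 in a fit of only the 6 DMSO libraries. Calls among HOX genes (13) were 8 at adjusted p under 0.01 and 8 to 14 with 1 library left out, lowest without knockdown replicate 3. Those among DNA replication genes (11) were 7 at 0.01 and 7 without knockdown replicate 1. Leukocyte marker calls (2) were 1 with the stricter filter, with only the 6 DMSO libraries, at 0.01, and without control replicate 1 or 3 or knockdown replicate 1 or 2. Epithelial marker calls (5) were 2 with the stricter filter and 3 with only the 6 DMSO libraries, and endothelial marker calls (3) were 1 without control replicate 1. The cause was not tested beyond the smaller number of genes or libraries. List medians moved past the spread of knockdown libraries in 167 of 960 refits. Depth limits genes under about 1 CPM.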
